A study of Mus musculus with 12 samples.

Results

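The transcripts of 10 interferon-inducible GTPase genes were examined in myeloid-derived suppressor cells (MDSCs) sorted from mouse liver tumors. The genes were taken by symbol from the 24346 genes measured in each library, namely the guanylate-binding protein (GBP) genes Gbp2, Gbp3, Gbp5 and Gbp7 and the immunity-related GTPase (IRG) genes Irgm1, Irgm2, Igtp, Iigp1, Ifi47 and Tgtp1. They were chosen as a family, with earlier results of these data known, and all 10 were listed in every library. Of these, 8 of 10 reached the level needed for testing, and Iigp1 and Tgtp1 did not.

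RNA-seq libraries were made from 2 cell types under 3 treatments, with 2 libraries in each of the 6 groups. M-MDSCs, the monocytic cells, were sorted as CD11b+ cells high in Ly-6C and without Ly-6G, and PMN-MDSCs, the polymorphonuclear cells, as CD11b+ cells with intermediate Ly-6C and with Ly-6G. All mice were labelled WT. In the study's methods they were C57BL/6J females 6 to 8 weeks old, chosen for a high share of MDSCs in the blood, that carried Hepa 1-6 hepatoma cells in the liver and received vehicle, MS-275 or CXD101. MS-275 (entinostat) and CXD101 both inhibit histone deacetylases HDAC1, HDAC2 and HDAC3. For M-MDSCs the methods give 5 mg/kg daily by intraperitoneal injection for 10 days from day 10 after transplantation, with collection on day 21, and the vehicle mice received the vehicle solution. The sources used here do not give the schedule for the PMN-MDSC libraries, nor how many animals went into a library. The M-MDSC libraries were 2 biological replicates per group in a figure legend of the study. For PMN-MDSCs nothing states it, so p-values there measure only the spread between these libraries, which may be technical.

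GBPs and IRGs are GTPases whose transcription is switched on by interferons, most strongly by interferon-gamma through its receptor and factors that include the IRF family. They assemble on vacuoles and bacteria inside the cell, open or mark them for destruction, and expose bacterial products to inflammasomes. Among the IRGs, Irgm1, Irgm2 and Igtp (also called Irgm3) encode regulators that sit on the cell's own membranes and hold the others inactive, whereas Iigp1 (Irga6), Tgtp1 (Irgb6) and Ifi47 (Irgd) encode effectors that load onto foreign vacuoles.

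The members lie in few places in the genome. In the GENCODE M21 annotation of GRCm38, Gbp5, Gbp7, Gbp3 and Gbp2 lie in this order on the plus strand of chromosome 3, from 142493978 to 142638008. Irgm1, Tgtp1 and Ifi47 lie on chromosome 11 from 48861968 to 49096974, Igtp and Irgm2 on the same chromosome from 58199556 to 58222782, and Iigp1 on chromosome 18. Igtp and Irgm2 share 7974 bp on the same strand, and Ifi47 lies within Olfr56, an olfactory receptor gene listed at 0.441 FPKM or less in every library. Whether the counting used strand and how it split reads between such pairs is not given in the sources used here, so the levels of Igtp and Irgm2 are uncertain to that extent.

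Sequences before the transcription start are shown because they hold the letters through which interferon signals are known to reach these genes. Promoters of 300 bases, from 250 before to 50 after the start, were available from RefSeq (GRCm38.p6) for 9 members, 10 promoters in all, since Gbp3 has 2. They were searched on both strands for the gamma-activated site (GAS, TTCNNNGAA, known from genes induced by interferon-gamma) and for the core of the interferon-stimulated response element (ISRE core, GAAANNGAA, letters bound by IRF factors). Capitals mark the matches, and a core on the opposite strand shows as its reverse complement.

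Gbp2, chr3:142620593-142620625, plus strand: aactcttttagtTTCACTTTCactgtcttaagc
Gbp3, chr3:142559988-142560026, plus strand: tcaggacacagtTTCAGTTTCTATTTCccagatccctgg
Gbp5, chr3:142496870-142496902, plus strand: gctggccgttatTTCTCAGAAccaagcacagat
Gbp7, chr3:142530218-142530304, plus strand: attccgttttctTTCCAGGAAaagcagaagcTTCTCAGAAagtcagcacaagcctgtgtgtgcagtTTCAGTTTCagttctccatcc
Irgm1, chr11:48871424-48871462, minus strand: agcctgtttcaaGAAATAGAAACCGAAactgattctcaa
Tgtp1, chr11:48992303-48992346, minus strand: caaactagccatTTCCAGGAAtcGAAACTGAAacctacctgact
Igtp, chr11:58199499-58199542, plus strand: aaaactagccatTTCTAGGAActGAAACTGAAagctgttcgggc
Irgm2, chr11:58214890-58214933, plus strand: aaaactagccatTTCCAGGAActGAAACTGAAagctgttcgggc

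In Gbp3 and Irgm1 2 cores overlap and read as 1 run of capitals. In Igtp, Irgm2 and Tgtp1 the GAS and the core were 2 bases apart, and 61 of 63 bases around them were identical between Igtp and Irgm2, against 37 between Igtp and Tgtp1. Gbp5 held a further GAS and a core farther upstream (245 and 164 bases before the start), and the promoters of Ifi47 and the other Gbp3 promoter held neither. Of all 32851 promoters of this length, 8.30% held a GAS and 8.56% an ISRE core. In GENCODE, which places some starts elsewhere than RefSeq, the windows of Gbp7 and Igtp, and all but 1 base of that of Gbp3, lay outside annotated transcripts. Those of Irgm2 and Tgtp1, and all but 3 bases of that of Gbp5, lay in introns of the same genes. That of Irgm1 lay in an exon, and that of Gbp2 reached 24 bases into the 5′ untranslated region. A match is a description of letters and not a site of binding.

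Levels are given as FPKM, the fragments scaled to transcript length and library size that the authors deposited, so that genes can be compared per length. Deposited values summed to between 564078 and 596407 in M-MDSC libraries and between 656932 and 860841 in PMN-MDSC libraries. From the steps between low values the libraries held about 8350000 to 10480000 reads in M-MDSCs and 6930000 to 8060000 in PMN-MDSCs, and replicates correlated across genes with r of 0.988 to 0.991. S100a8 and S100a9, neutrophil genes, made up 10.2% to 13.7% of all FPKM in PMN-MDSCs under vehicle and 27.3% to 30.9% under the inhibitors. Under vehicle the neutrophil receptor gene Csf3r was at 226 FPKM in PMN-MDSCs and 9.61 in M-MDSCs, and the monocyte genes Ccr2 at 38.2 and 142 and Ly6c2 at 483 and 1333. The monocyte list was not uniform, since Cx3cr1 (1.35 and 0.523 FPKM) was called higher in PMN-MDSCs and Csf1r was at 153 there and 123 in M-MDSCs. The sort marker gene Ly6g was not analysed here. These are bulk samples, in which fewer cells of a type and less RNA per cell cannot be told apart.

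MS-275 raised 3 GBP genes in M-MDSCs, and Gbp3 more than any other member. Gbp3 encodes a GBP of the vacuole coat. It was at 2.78 and 3.56 FPKM in the vehicle libraries, at 10.1 in both MS-275 libraries and at 6.72 and 6.07 in the CXD101 libraries. The groups did not overlap, and those of CXD101 stood between the others. The difference of MS-275 from vehicle was 1.42 on the log2(FPKM + 1) scale (SE 0.118, adjusted p = 4.99e-05). On this scale a pseudocount of 1 is added, which understates changes of low genes.

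Gbp5, which encodes a GBP that promotes inflammasome assembly, was low throughout. The vehicle libraries held 1.25 and 1.34 FPKM, the MS-275 libraries 2.87 and 3.44, and the CXD101 libraries 2.86 and 2.34. Both treated groups lay above the vehicle group, and their nearest libraries all but met. For MS-275 the log2 difference was 0.85 (SE 0.138, adjusted p = 0.00148). Gbp2 encodes a GBP that coats and lyses pathogen vacuoles. Its levels were 3.42 and 3.13 FPKM under vehicle, 6.12 and 5.27 under MS-275 and 4.23 and 3.70 under CXD101. MS-275 stood apart from both other groups, with a log2 difference from vehicle of 0.64 (SE 0.119, adjusted p = 0.00286), a 1.56-fold change just past the limit of 1.5. Without MS-275 replicate 1 the difference was 0.55, and under quantile normalization 0.54, both under that limit. The fourth GBP member, Gbp7, a GBP linked to the transport of antimicrobial enzymes to vacuoles, was at 9.02 and 7.92 under vehicle and at 9.32 and 9.53 under MS-275. Its log2 difference of 0.14 did not pass the test (95% interval -0.11 to 0.39, adjusted p = 0.312).

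Of the 8 members tested, 3 were therefore called higher and 0 lower under MS-275 in M-MDSCs (adjusted p under 0.05 and a fold change above 1.5). Over all 11078 genes tested, 10.1% were called higher and 7.32% lower. The median log2 difference of the members was 0.40, against -0.06 over all genes.

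**Figure D1:**
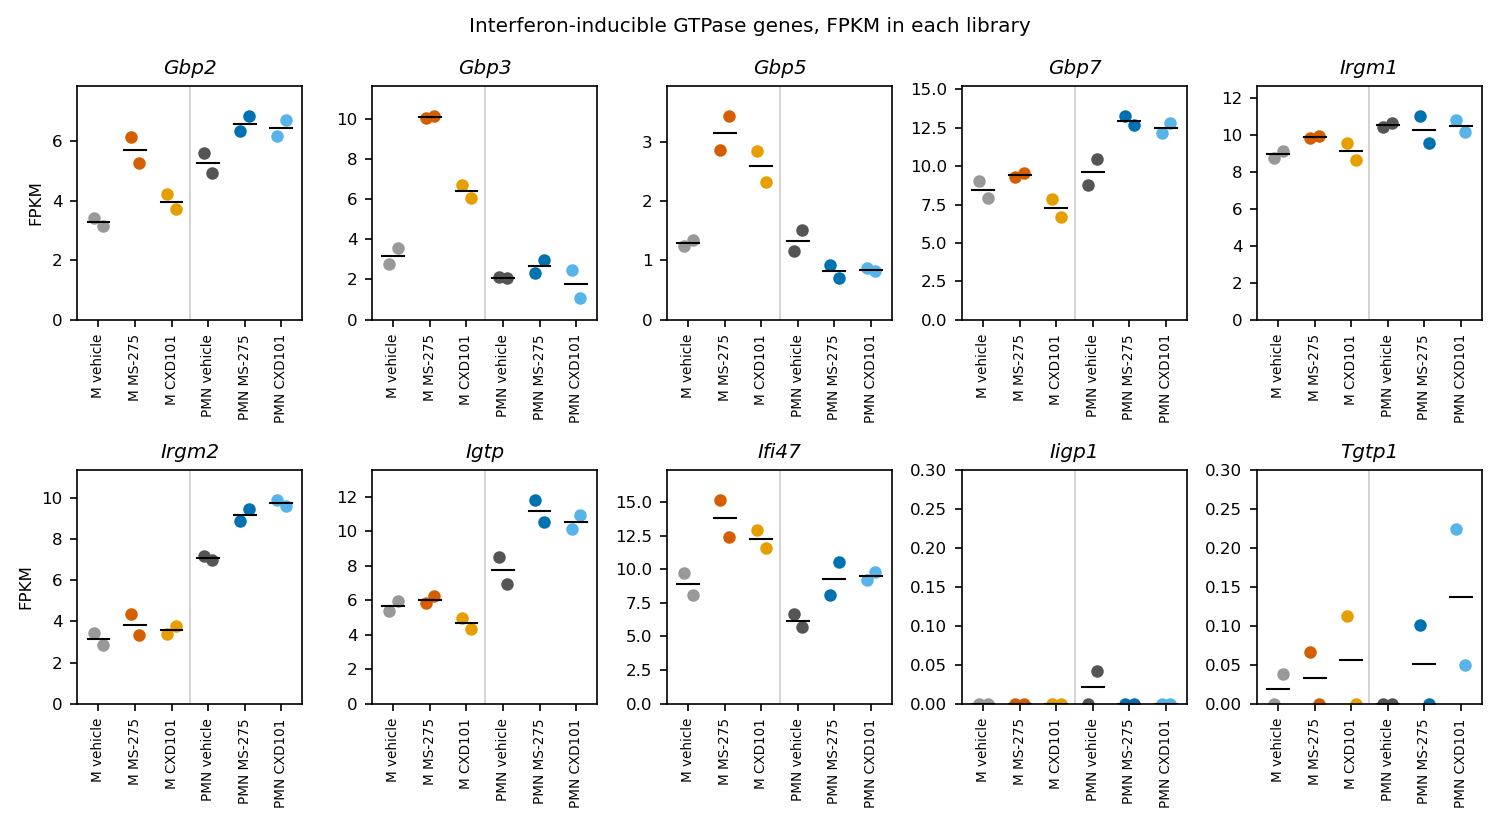
FPKM (y axis, from 0) of the 10 GTPase genes in each library, by group (x axis); points are the 2 libraries of a group and bars their mean. In M-MDSCs Gbp3 stood near 10.1 FPKM under MS-275 against 2.78 to 3.56 under vehicle, while Iigp1 and Tgtp1 stayed at or under 0.224 FPKM in every library.

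The IRG genes of M-MDSCs moved less. Ifi47, an effector, was at 9.71 and 8.06 FPKM under vehicle, 15.1 and 12.4 under MS-275 and 12.9 and 11.6 under CXD101. Both treated groups lay above vehicle. The log2 difference for MS-275 was 0.58 (SE 0.123, adjusted p = 0.00542), a 1.495-fold change of FPKM + 1, so Ifi47 was the member just outside the fold limit and Gbp2 the one just inside it. The ratio of its mean FPKM was 1.55. It was called, at 0.62 to 0.64, under each of the 3 other scalings and with a pseudocount of 0.1, and also without vehicle replicate 1 (0.70) or MS-275 replicate 2 (0.71). The regulators Irgm1, Irgm2 and Igtp were not called. Irgm1 lay between 8.64 and 9.90 FPKM in the 6 M-MDSC libraries, Irgm2 between 2.85 and 4.35 and Igtp between 4.35 and 6.22. Their log2 differences under MS-275 were 0.13, 0.23 and 0.08, with adjusted p from 0.220 to 0.594.

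The 2 effector genes outside the test were near 0. Iigp1 was listed at 0 in 11 of the 12 libraries and at 0.0422 FPKM in PMN-MDSC vehicle replicate 2. Tgtp1 ranged from 0 to 0.224 FPKM over all 12 libraries, its near-identical neighbor Tgtp2 from 0 to 0.712. Reads that fit both Tgtp genes may have been split between them or left out, so neither level is certain. In the annotation Tgtp1 also shares 6900 bp on the same strand with Gm12185, another listed gene. How reads were split there is not given either.

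CXD101 was compared with vehicle in M-MDSCs on the same vehicle libraries. It raised Gbp3, with a log2 difference of 0.83 (SE 0.118, adjusted p = 0.00202), and Gbp5, with 0.65 (SE 0.138, adjusted p = 0.0125). Gbp5 was not called without vehicle replicate 1 (0.62, adjusted p = 0.0630), without CXD101 replicate 1 (0.54, adjusted p = 0.0734) or under quantile normalization (0.51). Ifi47 had an adjusted p of 0.0390 and a log2 difference of 0.43, under the fold limit. Gbp2 was at 0.21 (95% interval -0.06 to 0.49, adjusted p = 0.233). Gbp7 and Igtp were lower in mean than under vehicle, at -0.20 and -0.24 on the log2 scale, and did not pass the test. Of 8 members, 2 were called higher and 0 lower. Of all genes, 5.14% were called higher and 3% lower. Both inhibitors share the vehicle libraries, so the 2 sets of values are given side by side and are not independent.

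MS-275 and CXD101 were given to the M-MDSC mice at the same dose and times, so their groups can be compared directly. Gbp3 was higher under MS-275 by 0.59 on the log2 scale (SE 0.118, adjusted p = 0.0167), a fold change of 1.50032 at the very edge of the limit. That call was lost without any 1 of the 4 treated libraries, where the difference was 0.52 to 0.65 and the adjusted p 0.0550 to 0.0827, and also without the filter (0.0518) and with all 12 libraries in 1 model (0.0922). Gbp2 differed by 0.43 with an adjusted p of 0.0483 and stayed under the fold limit. The others did not pass: Gbp7 differed by 0.34 (95% interval 0.09 to 0.58, adjusted p = 0.0729), Igtp by 0.31 (0.07 to 0.56, adjusted p = 0.0927), Gbp5 by 0.21 (-0.11 to 0.53) and Ifi47 by 0.15 (-0.13 to 0.44). The intervals of Irgm1 (-0.10 to 0.31) and Irgm2 (-0.25 to 0.40) also held 0. Of the 8 pairs compared 1 was called higher and 0 lower, with 3.22% and 1.17% of all genes, and p-values were adjusted over all genes.

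Markers of other cells moved in the same M-MDSC groups. The 7 neutrophil markers found summed to 11232 to 11949 FPKM under vehicle, 21982 to 25944 under MS-275 and 21818 to 23032 under CXD101. Most of this was S100a8 and S100a9, at means of 6063 and 4892 FPKM under vehicle. Ngp went from a mean of 507 FPKM under vehicle down to 352 under MS-275 and up to 755 under CXD101. Retnlg hardly moved (3.39, 2.96 and 3.11). The eosinophil list, led by granule genes, summed to 152 to 185 FPKM under vehicle, 377 to 402 under MS-275 and 367 to 397 under CXD101, and the macrophage list to 150 to 154, 76.1 to 82.0 and 122 to 139. The 11 NK and T cell markers found were low and summed to 0.271 to 0.343 FPKM under vehicle. Under MS-275 they summed to 0.657 to 1.35 FPKM and under CXD101 to 0.409 to 0.668. Of these 11, 0 reached 1 FPKM in both libraries of a group, and Ncr1 and Gzma were at 0 in all 12 libraries. Ifng, the gene of interferon-gamma itself, was listed at 0 in all 12. Whether the shifts in other markers have a part in the GBP levels was not tested.

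In PMN-MDSCs 0 of 8 members were called by limma in either direction under MS-275, where 14.6% of 11184 genes were called higher and 14.2% lower. At an unadjusted p under 0.05, 5 of the 8 passed under MS-275 and 4 under CXD101, where 59.4% and 53.9% of all genes passed. Gbp3 was at 2.11 and 2.07 FPKM under vehicle, 2.34 and 2.95 under MS-275 and 2.47 and 1.07 under CXD101. The treated groups did not separate from each other, and the log2 difference for MS-275 was 0.23 (95% interval -0.32 to 0.79, adjusted p = 0.440). Gbp5 was at 1.16 and 1.52 FPKM under vehicle and below 1 in all 4 treated libraries, from 0.704 to 0.928. It entered the test only through its vehicle libraries, the group where it was highest, so no call of a decrease is read from it here. Its log2 difference was -0.36.

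In PMN-MDSCs 4 of 8 members had an adjusted p under 0.05 with a fold under the limit, and for both inhibitors these were Igtp, Ifi47, Gbp7 and Irgm2, all higher in mean than under vehicle. Of all genes, 10.7% met the same rule in that direction under MS-275 and 9.57% under CXD101. Without vehicle replicate 1, Igtp under MS-275 (0.62) and Ifi47 under MS-275 (0.61) and CXD101 (0.65) passed the fold limit too, as did Ifi47 without MS-275 replicate 1 (0.68) or, for CXD101, with a pseudocount of 0.1 (0.62). Igtp was at 8.52 and 6.92 FPKM under vehicle, 11.8 and 10.6 under MS-275 and 10.1 and 10.9 under CXD101. Ifi47 was at 6.68 and 5.69 under vehicle, 8.09 and 10.5 under MS-275 and 9.21 and 9.81 under CXD101. All treated libraries lay above all vehicle libraries in both genes. Gbp7 went from 8.77 and 10.5 to 13.2 and 12.7 and to 12.2 and 12.8, and Irgm2 from 7.20 and 7.01 to 8.88 and 9.47 and to 9.90 and 9.61.

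Under MS-275 the log2 differences of these genes were 0.48 for Igtp (adjusted p = 0.0118), 0.51 for Ifi47 (0.0166), 0.40 for Gbp7 (0.0160) and 0.33 for Irgm2 (0.0233). Under CXD101 they were 0.41 (0.0289), 0.55 (0.0150), 0.35 (0.0323) and 0.41 (0.0115). With every library scaled to the same sum the median of all genes moved to -0.35 for MS-275 and -0.34 for CXD101, against -0.03 for both as deposited. None of these 4 genes then passed, at 0.02 to 0.21 for MS-275 and 0.03 to 0.25 for CXD101, which is above the shifted median. Gbp2 (5.59 and 4.92, 6.33 and 6.82, 6.16 and 6.72 FPKM) differed by 0.28 and 0.25 without passing, and by -0.02 and -0.05 under that scaling. Irgm1 lay between 9.55 and 10.98 FPKM in the 6 libraries, with differences of -0.03 and -0.01.

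For CXD101 in PMN-MDSCs 0 of 8 members were called, where 11.9% of genes were called higher and 9.54% lower. Between MS-275 and CXD101 0 of 8 were called, with 0.465% and 0.34% of all genes. The smallest adjusted p of a member was 0.428, for Gbp3, whose log2 difference was 0.44 (95% interval -0.12 to 0.998). For the other 7 the intervals ran from -0.42 at the lowest to 0.37 at the highest. At an unadjusted p under 0.05, 0 members passed here, against 15.4% of all genes. Dose and times are not given for these mice, so the pairs are set side by side only as labelled.

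Neutrophil markers moved with the inhibitors in the same PMN-MDSC libraries. The 7 found summed to 69604 to 95366 FPKM under vehicle, 248798 to 272454 under MS-275 and 261887 to 287978 under CXD101. Ngp, a granule protein gene, went from a mean of 1559 FPKM under vehicle to 14431 under MS-275 and 19288 under CXD101. The 6 monocyte markers summed to 641 to 718 FPKM under vehicle, 1581 to 1776 under MS-275 and 1523 to 1734 under CXD101. This list was mixed. Ly6c2 rose from a mean of 483 FPKM to 1582 and 1523, whereas Csf1r fell from 153 to 62.0 and 71.9. Ccr2 and Cx3cr1 were lower in mean too. The list of macrophage markers summed to 186 to 196 FPKM under vehicle, 129 to 143 under MS-275 and 112 to 125 under CXD101. It was not uniform. Under MS-275 Mrc1 fell from a mean of 49.3 FPKM to 3.14, while Apoe rose from 15.1 to 48.2 and Adgre1 was at 87.5 and 83.3. The NK and T cell markers summed to 0.537 to 0.558 FPKM under vehicle. Under MS-275 this sum was 1.93 to 2.80 FPKM and under CXD101 1.146 to 2.25. The part of these markers in the members' levels was not tested.

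**Figure D2:**
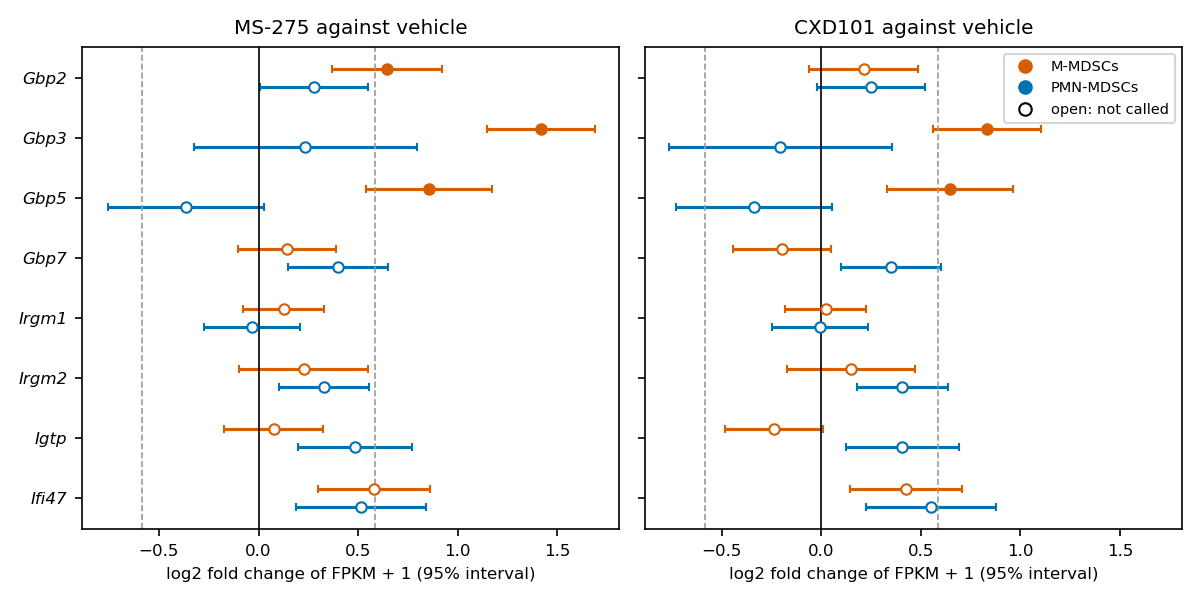
Log2 difference of FPKM + 1 from vehicle with its 95% interval (x axis) for the 8 tested members (y axis), in M-MDSCs and PMN-MDSCs; dashed lines mark a 1.5-fold change and filled points are called genes. Gbp3 and Gbp5 were called in M-MDSCs under both inhibitors (1.42 and 0.85, 0.83 and 0.65), and no member was called in PMN-MDSCs.

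A model of all 12 libraries tested whether PMN-MDSCs and M-MDSCs responded unequally. Gbp3 responded less in PMN-MDSCs than in M-MDSCs, by -1.18 on the log2 scale for MS-275 (SE 0.289, adjusted p = 0.0112) and by -1.04 for CXD101 (SE 0.289, adjusted p = 0.0250). For Gbp5 the differences were -1.22 (SE 0.198, adjusted p = 0.00131) and -0.98 (SE 0.198, adjusted p = 0.00552). They include its lower level in treated PMN-MDSCs (-0.36 and -0.34 against vehicle). That decrease lies under 1 FPKM and is not read as a result, so the size of these differences is uncertain. The direction held for both genes under each scaling. For MS-275, 0 members were called higher and 2 lower of 8, with 8.65% and 9.48% of 11662 genes. For CXD101, 1 was called higher, Igtp, and 2 lower, with 7.31% and 6.59% of genes.

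Igtp had a response to CXD101 that was 0.64 higher in PMN-MDSCs (SE 0.161, adjusted p = 0.0155), and 0.35 higher without passing when libraries were scaled to the same sum. Leaving out 1 of 4 libraries (M-MDSC vehicle replicate 2, M-MDSC CXD101 replicate 2, PMN-MDSC vehicle replicate 2 or PMN-MDSC CXD101 replicate 2) ended that call, at 0.51 to 0.59. The CXD101 call for Gbp3 was lost without M-MDSC vehicle replicate 1, either M-MDSC CXD101 library, PMN-MDSC vehicle replicate 1 or PMN-MDSC CXD101 replicate 2, with adjusted p of 0.0504 to 0.0869, and without the filter (0.0604). The value was -0.66 without the last of these libraries. Gbp7 differed by 0.55 for CXD101 with an adjusted p of 0.0245, under the fold limit. It passed that limit with a pseudocount of 0.1 (0.60) and without M-MDSC vehicle replicate 2, M-MDSC CXD101 replicate 1 or PMN-MDSC vehicle replicate 2 (0.63 to 0.66). Gbp2, Irgm1, Irgm2 and Ifi47 did not pass for either inhibitor, except Gbp2 for MS-275 under the same-sum scaling (-0.76, adjusted p = 0.00549).

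Under vehicle Irgm2 was the member called between the cell types. It was at 7.20 and 7.01 FPKM in PMN-MDSCs and at 3.42 and 2.85 in M-MDSCs, a log2 difference of 0.97 (SE 0.118, adjusted p = 3.48e-05). The call held under every scaling. Gbp2 (0.55, adjusted p = 0.00140) and Igtp (0.38, adjusted p = 0.0128) were higher in mean in PMN-MDSCs and Ifi47 lower (-0.46, adjusted p = 0.0155), each under the fold limit. Gbp2 passed that limit with a pseudocount of 0.1 (0.66) and without M-MDSC vehicle replicate 1 (0.60) or PMN-MDSC vehicle replicate 2 (0.63). Gbp3, Gbp5, Gbp7 and Irgm1 did not pass. With libraries scaled to the same sum, Ifi47 (-0.65) and Gbp3 (-0.62) were called lower. Of 8 members 1 was called higher and 0 lower, with 17.2% and 16.8% of genes.

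By level per length, the order in M-MDSCs under vehicle was Irgm1 (8.93 ± 0.266 FPKM, SD, n = 2), Ifi47 (8.88 ± 1.16), Gbp7 (8.47 ± 0.778), Igtp (5.66 ± 0.395), Gbp2 (3.28 ± 0.207), Gbp3 (3.17 ± 0.553), Irgm2 (3.13 ± 0.405) and Gbp5 (1.29 ± 0.0630). The first 3 overlapped, as did Gbp2 with Gbp3 and Gbp3 with Irgm2. Under MS-275 Gbp3 stood second, behind Ifi47 (13.8 ± 1.90). In PMN-MDSCs under vehicle the order was Irgm1 (10.5 ± 0.163), Gbp7 (9.62 ± 1.22), Igtp (7.72 ± 1.13), Irgm2 (7.11 ± 0.130), Ifi47 (6.18 ± 0.704), Gbp2 (5.26 ± 0.471), Gbp3 (2.09 ± 0.0268) and Gbp5 (1.34 ± 0.255). Neighbors overlapped only for Irgm1 with Gbp7 and Igtp with Irgm2 there. Gbp7 was the highest member under both inhibitors, at 12.96 ± 0.404 and 12.5 ± 0.442.

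Summed over the 4 GBP members, M-MDSC libraries held 16.5 and 15.9 FPKM under vehicle, 28.4 and 28.4 under MS-275 and 21.7 and 18.8 under CXD101. PMN-MDSC libraries held 17.6 and 19.0, then 22.8 and 23.2, then 21.7 and 21.4. The 6 IRG members summed to 27.3 and 26.01, 35.2 and 31.9, and 31.0 and 28.3 in M-MDSCs. In PMN-MDSCs they summed to 32.8 and 30.3, 39.8 and 40.1, and 40.2 and 40.5. As deposited, treated libraries were above vehicle libraries of the same cell type in all these sums. With each library scaled to the same sum this held in M-MDSCs only. In PMN-MDSCs the GBP sums were then 26.8 and 28.2 under vehicle, 26.7 and 27.4 under MS-275 and 25.9 and 24.9 under CXD101, and the treated IRG sums (46.6 to 48.1) lay between the vehicle libraries (44.9 and 49.9).

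The remaining GTPase genes show where the rest of the family stood. Of 23 listed 21 were found, and 9 were tested in each cell type. In M-MDSCs MS-275 raised 5 of the 9 (Gbp4, Gbp6, Gbp8, Gbp9 and Irgc1) and lowered 1 (Mx1), and CXD101 raised 2 (Gbp4 and Gbp6). In PMN-MDSCs both inhibitors raised 3 (Gbp4, Gbp8 and Irgc1) and lowered 1 (Mx1). Gbp4 in both cell types and Gbp6 in M-MDSCs were under 1 FPKM in the vehicle libraries. They entered the test only through treated libraries, where they were higher, so their calls are given as a description only. Over all genes, 10.1% were called higher and 7.32% lower under MS-275 in M-MDSCs and 5.14% and 3% under CXD101, and in PMN-MDSCs 14.6% and 14.2%, then 11.9% and 9.54%. The 4 GBP genes belong to the cluster on the minus strand of chromosome 5, from 105014150 to 105293698 in GENCODE. Gbp4, Gbp8 and Gbp9 overlap there, so the share of reads between them is uncertain. Irgc1 is known from testis and not as an interferon-induced gene, and Mx1 encodes an antiviral GTPase of the dynamin family.

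Gbp4, a GBP of the second cluster, was above vehicle in both cell types under MS-275. It was at 0.646 and 0.394 FPKM under vehicle and 4.36 and 4.77 under MS-275 in M-MDSCs, and at 0.421 and 0.514 and then 4.44 and 4.22 in PMN-MDSCs. The log2 differences were 1.88 and 1.86, and the difference between the cell types was -0.01 (95% interval -0.54 to 0.51). No p-value is read from them, since Gbp4 entered the test only through its treated libraries. Gbp8 went from 2.28 and 2.51 FPKM to 9.47 and 12.01 in M-MDSCs, and from 2.04 and 2.66 to 12.5 and 9.83 in PMN-MDSCs. Its log2 differences were 1.78 (adjusted p = 3.42e-05) and 1.85 (adjusted p = 8.52e-05).

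Under CXD101 the largest difference from vehicle among the tested chromosome 5 genes was that of Gbp8 in PMN-MDSCs, at 7.39 and 5.85 FPKM, a log2 difference of 1.18 (adjusted p = 0.00103). In M-MDSCs Gbp8 was at 4.35 and 3.60, a difference of 0.55 under the fold limit (adjusted p = 0.0233). It passed with a pseudocount of 0.1 (0.70), under the same-sum scaling (0.61) and without CXD101 replicate 2 (0.66). The responses of Gbp8 in the cell types differed by 0.63, which did not pass (adjusted p = 0.0692). Gbp4 differed from vehicle by 0.61 in M-MDSCs and 0.66 in PMN-MDSCs, again as a description only. In M-MDSCs the call was lost without vehicle replicate 2 (0.49) or CXD101 replicate 1 (0.48). It was also lost there without the filter (0.61) and under quantile normalization (0.48). In PMN-MDSCs it was lost without vehicle replicate 1 (0.61), vehicle replicate 2 (0.70) or CXD101 replicate 1 (0.44). It was lost there too under quantile normalization (0.50) and under the same-sum scaling (0.58, below the fold limit). Gbp6 was at 0.278 and 0.241 FPKM under vehicle, 1.95 and 1.99 under MS-275 and 1.13 and 0.775 under CXD101 in M-MDSCs. Its log2 difference for CXD101 was 0.63, given as a description only. The call was lost without vehicle replicate 1 (0.65), vehicle replicate 2 (0.61) or CXD101 replicate 1 (0.50), and under quantile normalization (0.52). Between the inhibitors, 4 of these genes were called higher under MS-275 in M-MDSCs (Gbp4, Gbp6, Gbp8 and Gbp9) and 1 in PMN-MDSCs (Gbp4). Of all genes, 3.22% and 0.465% were called higher there. The calls of Gbp4 and Gbp6 are again a description only, since both entered the test only through treated libraries.

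**Figure D3:**
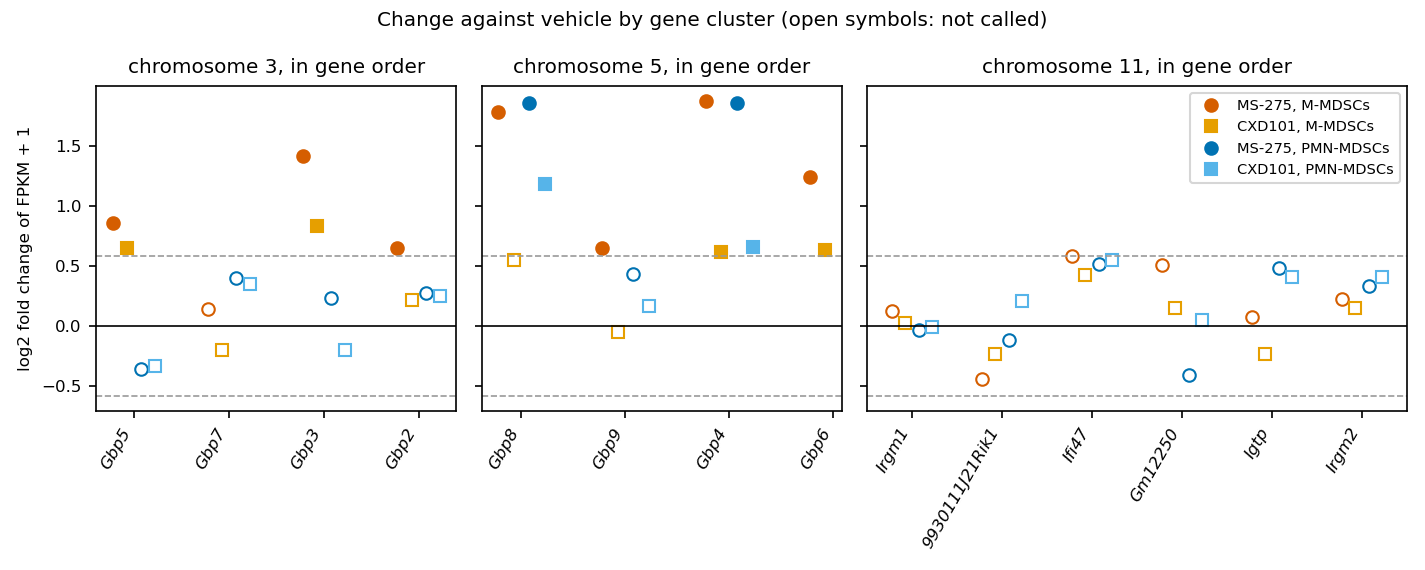
Log2 difference of FPKM + 1 from vehicle (y axis) for tested GBP and IRG genes in their order along chromosomes 3, 5 and 11 (x axis), by inhibitor and cell type; filled symbols are called genes and dashed lines a 1.5-fold change. In PMN-MDSCs the called genes are Gbp8 and Gbp4 on chromosome 5 (1.85 and 1.86 under MS-275). In M-MDSCs Gbp5, Gbp3 and Gbp2 on chromosome 3 are called as well. Gbp4 and Gbp6 entered the test only through treated libraries.

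The receptor and signalling genes upstream of these GTPases were measured next. Of 16 tested, MS-275 raised 1 (Socs1) and lowered 1 (Ifngr2) in M-MDSCs and CXD101 changed 0 past both limits. In PMN-MDSCs MS-275 raised 2 (Socs1 and Socs3) and lowered 1 (Irf8), and CXD101 raised 1 (Socs1). These shares lie at or under the shares of all genes called, which are given with the other GTPase genes.

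Irf1 encodes an interferon-induced factor that binds ISRE letters. It was at 20.8 to 22.7 FPKM in the M-MDSC libraries, and in PMN-MDSCs at 37.2 and 40.9 under vehicle, 55.2 and 56.7 under MS-275 and 52.1 and 50.9 under CXD101. Its differences in PMN-MDSCs were 0.51 (adjusted p = 0.000797) and 0.39 (adjusted p = 0.00378), under the fold limit, and 0.17 and 0.05 with libraries scaled to the same sum. Irf8, a factor of the monocyte lineage, lay between 34.5 and 39.9 FPKM in M-MDSCs and fell in PMN-MDSCs under MS-275, from 16.5 and 11.2 to 5.99 and 6.33 (log2 difference -1.03, adjusted p = 0.00132). Under CXD101 it was at 9.89 and 10.1, a difference of -0.41 that did not pass (adjusted p = 0.0752). It passed without vehicle replicate 2 (-0.67, adjusted p = 0.00521) and under the same-sum scaling (-0.74, adjusted p = 0.00793), and without vehicle replicate 1 it was -0.15.

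The receptor gene Ifngr1 was at 67.4 and 62.3 FPKM under vehicle in M-MDSCs, 89.4 and 87.9 under MS-275 and 81.8 and 80.1 under CXD101. The other chain, Ifngr2, was at 45.3 and 43.1, then 27.4 and 25.4, then 30.5 and 32.8. The 2 chains thus moved in opposite directions, by 0.45 (adjusted p = 0.000638, under the fold limit) and -0.72 (adjusted p = 0.000130) under MS-275. Socs1, a feedback inhibitor of interferon receptors, was at 15.8 and 16.6 FPKM under vehicle and 30.0 and 27.1 under MS-275 in M-MDSCs, and at 49.6 and 49.2 and then 108 and 120 in PMN-MDSCs. Its log2 differences were 0.78 (adjusted p = 0.00541) and 1.19 (adjusted p = 2.42e-05). For CXD101 in PMN-MDSCs Socs1 differed by 0.85 (adjusted p = 0.000172), and by 0.51 under the same-sum scaling, which is below the fold limit.

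**Figure D4:**
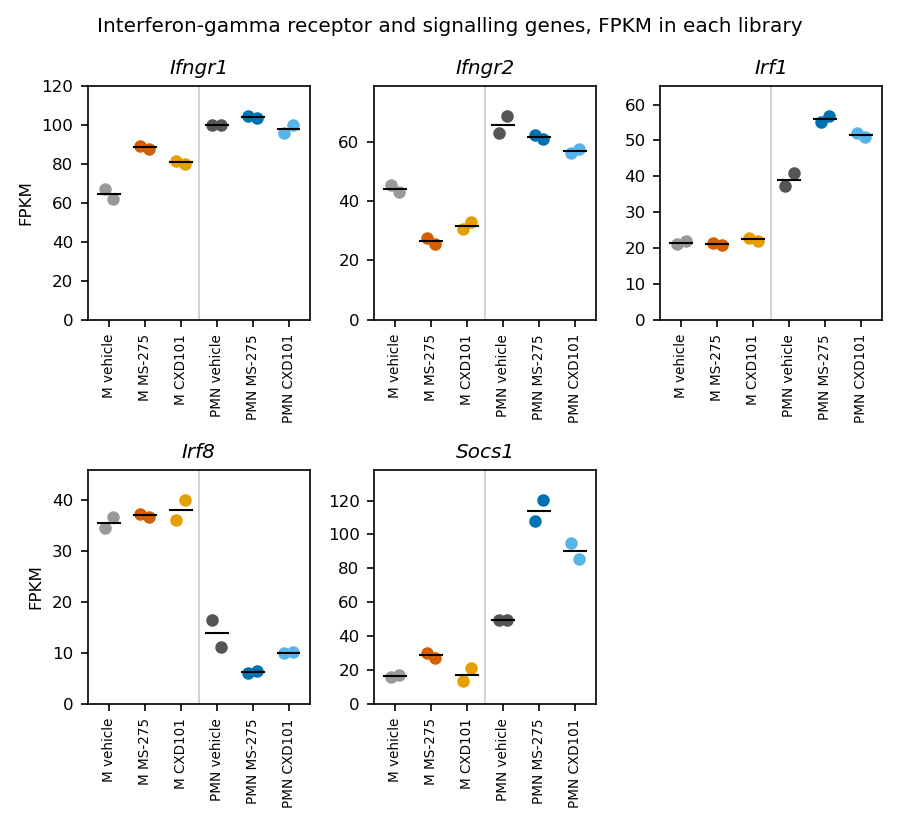
FPKM (y axis, from 0) of interferon-gamma receptor and signalling genes in each library, by group (x axis); points are the 2 libraries and bars their mean. Irf1 stayed within 20.8 to 22.7 FPKM in M-MDSCs and was higher in treated than in vehicle libraries of PMN-MDSCs.

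Other genes switched on by interferons did not share 1 pattern. Of 10 interferon-gamma target genes tested in M-MDSCs, MS-275 and CXD101 each raised 1 and lowered 2. Fcgr1, an Fc receptor gene of this list, fell from 25.1 and 24.6 FPKM to 6.72 and 6.66 under MS-275 and to 9.89 and 10.6 under CXD101 (log2 differences -1.75 and -1.20, adjusted p = 3.71e-06 and 7.00e-05). In PMN-MDSCs, where 11 were tested, 0 rose, and 2 fell under MS-275 and 4 under CXD101. Of all genes, 7.32% and 3% were called lower under MS-275 and CXD101 in M-MDSCs and 14.2% and 9.54% in PMN-MDSCs. Among the list's genes that fell were Ciita, the master regulator of MHC class II (-1.53 and -0.97), and Psmb10, an immunoproteasome subunit gene (-1.41 and -1.04), with adjusted p from 5.99e-05 to 0.00353.

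Of the type I interferon-stimulated genes in PMN-MDSCs, 12 of 18 tested were called higher under MS-275 and 10 of 18 under CXD101, and in M-MDSCs 4 and 1 of 13, with 0 called lower in each case. Of all genes, 14.6%, 11.9%, 10.1% and 5.14% were called higher in these comparisons. The list's median log2 difference was 0.84 and 0.68 in PMN-MDSCs and 0.39 and 0.12 in M-MDSCs, against -0.06 to -0.02 over all genes. Cmpk2, a nucleotide kinase gene, was at 2.33 and 3.33 FPKM under vehicle and 15.7 and 15.2 under MS-275 in PMN-MDSCs (log2 difference 2.11, adjusted p = 1.94e-05). Oas3, a sensor of double-stranded RNA, was at 1.56 and 1.69 and then 4.87 and 5.84 in M-MDSCs (1.27, adjusted p = 0.000123) and at 8.09 and 8.24 and then 26.4 and 28.0 in PMN-MDSCs (1.62, adjusted p = 1.25e-05). Isg20, an exonuclease gene, was called in M-MDSCs under CXD101 as well (0.78, adjusted p = 0.00700). By the test of the difference in response, 5 of 18 were called more responsive in PMN-MDSCs for MS-275 and 8 of 18 for CXD101, and 0 less responsive. Of all genes, 8.65% and 7.31% were called higher in these 2 tests, and 9.48% and 6.59% lower.

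Inflammasome and autophagy genes, whose pathways involve GBP and IRG proteins, were listed too. The shares of all genes called higher were 10.1% and 5.14% in M-MDSCs and 14.6% and 11.9% in PMN-MDSCs, under MS-275 and CXD101 in turn. Of 8 inflammasome genes, Il18 was called higher in each of the 4 comparisons with vehicle (log2 differences of 1.57 and 1.56 in M-MDSCs and 0.90 and 1.23 in PMN-MDSCs, adjusted p from 1.85e-05 to 0.000960), and Il1b was lower under CXD101 in M-MDSCs. Il18 encodes the inflammasome substrate interleukin-18. Of 13 autophagy conjugation genes, MS-275 raised 1 in M-MDSCs, Atg12 (0.70, adjusted p = 0.00217), a call lost without vehicle replicate 2 (0.53), and CXD101 0. In PMN-MDSCs MS-275 raised 3 and lowered 1, and CXD101 raised 2. They included Map1lc3a, an LC3 gene (0.85 and 0.93, adjusted p = 0.000452 and 0.000466). Under the same-sum scaling Map1lc3a was at 0.54 for MS-275, below the fold limit.

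Across the 12 libraries the members did not vary as 1 group. Pearson's r between Gbp3 and Gbp5 was 0.90, and that between Igtp and Irgm2, whose annotated spans overlap, 0.91. Gbp7 and Igtp had r of 0.91 without overlapping. Gbp3 and Gbp5 ran against Irgm2 (-0.69 and -0.75) and Igtp (-0.67 and -0.77). Within the 6 M-MDSC libraries Igtp and Irgm2 had r of -0.23. These values are descriptions, since the libraries share 2 cell types and 6 groups.

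The genes whose log2 levels were most like the mean standardised level of the 10 members over 12 libraries were 5430405H02Rik (r = 0.940), Aasdh (0.923), Glis3 (0.920), Stat4 (0.920) and Lrrc27 (0.919), out of 11662 tested genes. The 10 include Iigp1 and Tgtp1, which were too low for testing but counted in this mean like the others. Within M-MDSCs, where 9 members were used, the closest gene was Cd69 (r = 0.995), and within PMN-MDSCs Zmynd8 (0.996). In lists of the same length within each cell type only Aasdh recurred, in PMN-MDSCs (r = 0.987). The list thus changed with the libraries used. Stat4, a transcription factor of cytokine signalling, was at 2.09 and 1.82 FPKM under vehicle, 7.53 and 7.48 under MS-275 and 5.45 and 4.35 under CXD101 in M-MDSCs. In PMN-MDSCs it was at 4.11 and 4.75, then 11.9 and 10.4, then 11.5 and 10.2. Treated libraries were above vehicle libraries in both cell types, and PMN-MDSC libraries above the matching M-MDSC libraries.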

How the data were processed

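The authors deposited 1 table of FPKM values per library. The submitters' processing notes name TopHat2 2.1.1, Bowtie2 2.2.8, SAMtools 0.1.18, Cuffdiff 2.2.1 and the build mm10. The libraries were stranded, poly(A)-selected and single-end; the annotation and the strand setting are not given in the sources used here. RNA was extracted with a miRNeasy kit, which the labels call Micro and the methods Mini.

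Testing used limma 3.58.1 (R 4.3.3) on log2(FPKM + 1), with eBayes and an intensity trend, and kept genes that reached 1 FPKM in 2 or more libraries. This gave 11078 genes in 6 M-MDSC libraries, 11184 in 6 PMN-MDSC libraries and 11662 in all 12. The 3 groups of a cell type shared 1 model. Comparisons of the cell types used all 12 libraries. All tested genes entered the Benjamini-Hochberg adjustment. Calls needed an adjusted p under 0.05 together with a change of more than 1.5-fold. The study's methods use the same numbers, but the fold here is of FPKM + 1, which makes the limit stricter for low genes. The models were tested on simulated data. The log2 differences had a median SE of 0.0975 (M-MDSCs) or 0.114 (PMN-MDSCs). No counts were given; read numbers came from the spacing of the lowest FPKM values in single-transcript genes of at least 1000 bp, and no interval was derived from them. An FPKM of 0 can also be a failed estimate.

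The members and all gene lists were chosen with earlier results of these data known. The text names all members, Irf1, Irf8, Ifngr1, Ifngr2, Socs1 and Ifng, the called gene with the largest change of each list in each comparison with vehicle, and the 5 genes most like the members over all 12 libraries. The gene most like the members within each cell type is named as well. Further genes named in counts, and marker genes, were chosen after their values were seen. Alternatives were a pseudocount of 0.1, no filter, median-of-ratios scaling, quantile normalization, scaling to a sum of 1000000, a replicate block, all 12 libraries in 1 model and leaving out each library. Protein features were not analysed here, and 1 signalling gene is not reported here. Tables and figures were made in Python 3.11.15 (pandas 2.3.3, numpy 2.4.6, matplotlib 3.10.9).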

Additional observations from a re-analysis of the deposited data

Results flagged for a closer look

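The responses of 3 members differed between the cell types by a test of the difference itself, in limma with Benjamini-Hochberg adjustment over all genes. For MS-275 the response in PMN-MDSCs minus that in M-MDSCs was -1.18 on the log2 scale for Gbp3 (adjusted p = 0.0112) and -1.22 for Gbp5 (adjusted p = 0.00131). For CXD101 it was -1.04 for Gbp3 (adjusted p = 0.0250), -0.98 for Gbp5 (adjusted p = 0.00552) and 0.64 for Igtp (adjusted p = 0.0155). Of all genes, 8.65% were called higher and 9.48% lower for MS-275, and 7.31% and 6.59% for CXD101. The CXD101 calls of Gbp3 and Igtp were lost without certain single libraries. Leaving out 1 library gave -1.41 to -0.66 and 0.51 to 0.78. The call of Igtp was also lost under the same-sum scaling (0.35), and that of Gbp3 without the filter. For both inhibitors, Gbp3 and Gbp5 were above vehicle in both treated libraries of M-MDSCs. In PMN-MDSCs Gbp5 was below vehicle in all 4 treated libraries, and Gbp3 was below it in 1 of them. That decrease of Gbp5 lies under 1 FPKM and is not read as a result, yet its differences in response include it. The groups of 2 libraries are too small for a check of single outlying samples.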

How the results depend on the processing

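Most values kept their direction and their side of the limits. Scaling each library to a sum of 1000000 moved the most, since it shifted the median of all genes by -0.35 and -0.34 (log2) for MS-275 and CXD101 in PMN-MDSCs, by -0.17 for PMN-MDSCs against M-MDSCs under vehicle and by -0.34 and -0.31 for the 2 differences in response. Under it, MS-275 in PMN-MDSCs gave 1 member lower (Gbp5, tested only through its vehicle libraries, so the call is not read as a result, here or under CXD101), 1031 genes higher and 3648 lower, with Gbp2 at -0.024, Gbp3 at -0.013, Ifngr1 at -0.29 and Atg12 at -0.041. CXD101 gave 1 member lower, 801 genes higher and 3261 lower, with Gbp2 at -0.050 and Atg12 at -0.15. Between the cell types under vehicle it gave 2 members and 3036 genes lower, with Gbp5 at -0.10 and Gbp7 at -0.00073. The difference in response to MS-275 gave 390 genes higher and 3181 lower, with Gbp7 at -0.11 and Irgm2 at -0.27. That to CXD101 gave 0 members and 382 genes higher and 2570 lower, with Gbp2 at -0.28, Irgm2 at -0.065 and Ifi47 at -0.19. Irf1 under MS-275 in M-MDSCs was at 0.0066.

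Quantile normalization left 1 member higher under CXD101 in M-MDSCs. It turned small differences: in M-MDSCs Irf1 to 0.056 and Cmpk2 to -0.15 (MS-275), and Irgm2 between the inhibitors to -0.00058. In PMN-MDSCs Irgm1 turned to 0.017 (MS-275) and 0.031 (CXD101) and Ifngr1 to 0.024 (CXD101). Gbp5 between the cell types turned to -0.064, and the response of Irgm1 to CXD101 to 0.0055. With median-of-ratios scaling Irf1 (MS-275, M-MDSCs) was at 0.0059 and Irgm1 (CXD101, PMN-MDSCs) at 0.010.

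Without the filter, 0 members were called between the inhibitors in M-MDSCs, 1 was lower in the response to CXD101, and 3 genes were higher and 1 lower between the inhibitors in PMN-MDSCs. A pseudocount of 0.1 gave 1 member higher under CXD101 in PMN-MDSCs, 2 between the cell types and 2 in the response to CXD101. With all 12 libraries in 1 model, 0 members were called between the inhibitors in M-MDSCs, and 85 genes were higher and 66 lower in PMN-MDSCs.

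The replicate numbers did not pair the samples: deviations of same-numbered libraries correlated between -0.122 and 0.0718 over the 6 pairs of groups within a cell type and between -0.126 and 0.179 over all 15 pairs. With the replicate block 25 genes were lower between the inhibitors in PMN-MDSCs, against 38, and no member count changed.

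Leaving out 1 library gave, for members called higher, 2 to 4 under MS-275 and 1 to 2 under CXD101 in M-MDSCs, 0 to 1 between the inhibitors there, 0 to 2 under MS-275 and 0 to 1 under CXD101 in PMN-MDSCs, 1 to 2 between the cell types and 0 to 2 in the response to CXD101, with 1 to 2 lower. Between the inhibitors, 178 to 348 genes were higher in M-MDSCs, and 5 to 67 higher and 4 to 44 lower in PMN-MDSCs. In M-MDSCs the ranges that crossed 0 were, for MS-275, Irf1 -0.066 to 0.0023 and Map1lc3a -0.00041 to 0.38. For CXD101 they were Irgm1 -0.043 to 0.087, Socs1 -0.24 to 0.34 and Map1lc3a -0.13 to 0.24, and between the inhibitors Irgm2 -0.072 to 0.22. In PMN-MDSCs they were Irgm1 -0.12 to 0.059 for MS-275, and Gbp3 -0.58 to 0.17 and Irgm1 -0.046 to 0.034 for CXD101. Between the inhibitors there they were Gbp2 -0.028 to 0.080, Gbp5 -0.11 to 0.064, Ifi47 -0.21 to 0.13 and Irgm1 -0.12 to 0.065. Gbp5 between the cell types ranged from -0.089 to 0.13. In the response to MS-275 Ifi47 ranged from -0.24 to 0.10 and Irgm2 from -0.047 to 0.25, and in that to CXD101 Gbp2 from -0.040 to 0.11 and Irgm1 from -0.094 to 0.037. With 2 libraries a group, a group left with 1 is assumed to vary like the others. At these levels Gbp5 in PMN-MDSCs, Iigp1 and Tgtp1 rest on few reads.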
